A study of Mus musculus with 12 samples.

Results

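The 7 genes described here, Cfd, Adipoq, Plin1, Plin4, Cidec, Fabp4 and Lpl, are transcripts known for their high level in fat cells. They were taken by symbol from the 24054 genes in the count files, and all 7 were found. RNA was sequenced from 12 mouse colon samples of the immunodeficient strain NSG, which lacks mature lymphocytes and keeps macrophages. The N group is 4 libraries of wild type normal colon, taken next to tumours. The BT-T group is 4 libraries of engrafted tumours of the genotype BrafV600E;Tgfbr2-/-, grown from edited colonic organoids. The BTPRZ-T group is 4 libraries of engrafted tumours of the genotype BrafV600E;Tgfbr2-/-;Rnf43-/-/Znrf3-/-;p16 Ink4a-/-. Tgfbr2 is a receptor for TGF-beta, Rnf43 and Znrf3 are ubiquitin ligases that lower WNT receptors at the membrane, and p16 Ink4a restrains the cell cycle. No label gives age, sex, animal or organoid clone, so whether libraries are separate animals is not known and a p-value measures the spread between these libraries alone. Organoid and host cells are both of mouse, and the counts do not separate them.

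White adipocytes store triglyceride in a lipid droplet that perilipins and CIDE proteins coat and enlarge, take up fatty acids that lipoprotein lipase frees from circulating lipoproteins, carry them with fatty acid-binding protein 4, and secrete adipokines such as adiponectin and adipsin. The nuclear receptor PPAR-gamma and the C/EBP factors drive this programme during fat cell development. In the gut wall, adipocytes lie mainly in the mesenteric fat and, in places, in the submucosa, so colon samples can hold a few of them. Fabp4 and Lpl are less specific than Cfd, Adipoq and Plin1: capillary endothelium and macrophages express Fabp4, and macrophages and muscle express Lpl. Muscle also makes Plin4.

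Promoter sequences are shown for Cfd, Adipoq and Plin4, the 3 members whose level was called lower in tumours. Each line gives the 250 bases upstream of the transcription start, 5′ to 3′ on the strand of the gene, from RefSeq on GRCm38.p6. Capitals mark the CCAAT box, CCAAT or its reverse complement ATTGG. The Cfd stretch is chr10:79890603-79890852 on the plus strand, the Adipoq stretch chr16:23146286-23146535 on the plus strand, and the Plin4 stretch chr17:56109783-56110032 on the minus strand.
Cfd: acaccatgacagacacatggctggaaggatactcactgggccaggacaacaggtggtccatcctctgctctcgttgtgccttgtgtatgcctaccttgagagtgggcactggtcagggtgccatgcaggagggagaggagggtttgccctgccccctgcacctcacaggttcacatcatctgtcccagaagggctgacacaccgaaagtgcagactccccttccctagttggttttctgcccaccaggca
Adipoq: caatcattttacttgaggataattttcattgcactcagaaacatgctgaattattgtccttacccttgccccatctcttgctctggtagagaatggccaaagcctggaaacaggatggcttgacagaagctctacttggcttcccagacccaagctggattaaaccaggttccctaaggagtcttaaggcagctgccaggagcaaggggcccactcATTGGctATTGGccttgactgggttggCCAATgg
Plin4: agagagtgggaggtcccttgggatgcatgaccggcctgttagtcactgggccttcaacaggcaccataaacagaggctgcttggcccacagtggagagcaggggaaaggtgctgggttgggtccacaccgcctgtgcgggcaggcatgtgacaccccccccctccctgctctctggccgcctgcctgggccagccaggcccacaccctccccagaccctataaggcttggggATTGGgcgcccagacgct
The search covered 300 bases, the 250 shown and the first 50 of the transcript, on both strands, in the 5 of 7 members with an entry (Cfd, Adipoq, Plin1, Plin4 and Cidec). Adipoq held 3 CCAAT boxes, starting 34, 27 and 7 bases before the start, and Plin4 held 1, starting 18 bases before it. Of all 32851 promoter windows, 37.4% held a CCAAT box. The C/EBP core TTGCNNAA, in 10.8% of all windows, was found in Plin1, starting 187 and 58 bases before the start, and in 1 window of Cidec, starting 198 bases before it. The TATA box TATAAA (13.6% of all windows) and the nuclear receptor half-site AGGTCA (16.3%) were in none of these windows. A match is a description of letters. No motif was shared by all 5.

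Libraries held 15732004 to 26052772 reads in genes, and reads of 13450 to 17266 genes. Fewest genes were detected in N replicate 2 and in BTPRZ-T replicates 1 and 4. These are called the 3 sparse libraries, and changes without them are given for the members in their paragraphs and for the other gene groups as counts of called genes. Levels are CPM after TMM scaling, a gene's reads per 1000000 of the library total as edgeR adjusts it for composition, with the SD over 4 libraries. The edited genes, Cdkn2a (of p16 Ink4a), Braf, Znrf3, Rnf43 and Tgfbr2, had at least 4 reads in every library, and counts over whole genes cannot show an edit. A gene was called when its edgeR quasi-likelihood p, adjusted over 14860 tested genes by the Benjamini-Hochberg method, was under 0.05. Of these, 1274 were called in BT-T against N, 431 of them lower, and 919 were called lower in BTPRZ-T against N. Without the 3 sparse libraries, 4359 of 15208 tested genes were called in BT-T against N. The totals of that fit in the other comparisons are not given here, nor is the number called higher in BTPRZ-T against N. Counts of called genes stand beside the totals that are given, and the other counts have no share over all genes to be read against. Of the 7 members, 6 had enough reads to be tested, and Plin1 did not.

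The adipocyte label held for N only as a trace. Of 7 other adipokine and white fat genes, 3 had too few reads to be tested. Lep and Retn, adipokines of white fat, had 3 and 17 reads over the 4 N libraries, 0 and 2 in BT-T, and 0 and 0 in BTPRZ-T. Orm1, an acute-phase gene of liver and fat, had 6 and 6 reads in N and BT-T and 103 in BTPRZ-T, 98 of them in 1 library. The 4 tested genes, of which Tusc5 had a higher mean in both tumour groups than in N, are described further on. Cfd, Adipoq and Plin1, the members most restricted to fat, had 655 reads in all in N, with 12 in BT-T and 11 in BTPRZ-T. Their summed level was 10.3 ± 6.27 CPM in N, with 0.151 ± 0.241 CPM in BT-T and 0.177 ± 0.355 CPM in BTPRZ-T. In N it ranged from 4.79 to 17.7 CPM, and no tumour library passed 0.710 CPM. Fewer fat cells and less RNA per fat cell cannot be told apart in such bulk samples. Per kilobase of the longest coding transcript, the mean levels in N ran in the order Fabp4 (29.2 CPM per kb), Cfd (9.14), Lpl (7.99), Plin4 (4.00), Cidec (2.30), Adipoq (1.08) and Plin1 (0.167). The ranges of neighbours overlapped from Fabp4 down to Plin4, and did not overlap between Plin4, Cidec, Adipoq and Plin1. In BT-T the order began with Fabp4 (19.2 CPM per kb), Lpl (12.8), Plin4 (2.09) and Cidec (0.354), whose ranges did not overlap. In BTPRZ-T, Fabp4 (23.3 CPM per kb) and Lpl (5.90) again led, followed by Cidec (2.35) and Plin4 (0.312), and all 4 overlapped with a neighbour.

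**Figure D1:**
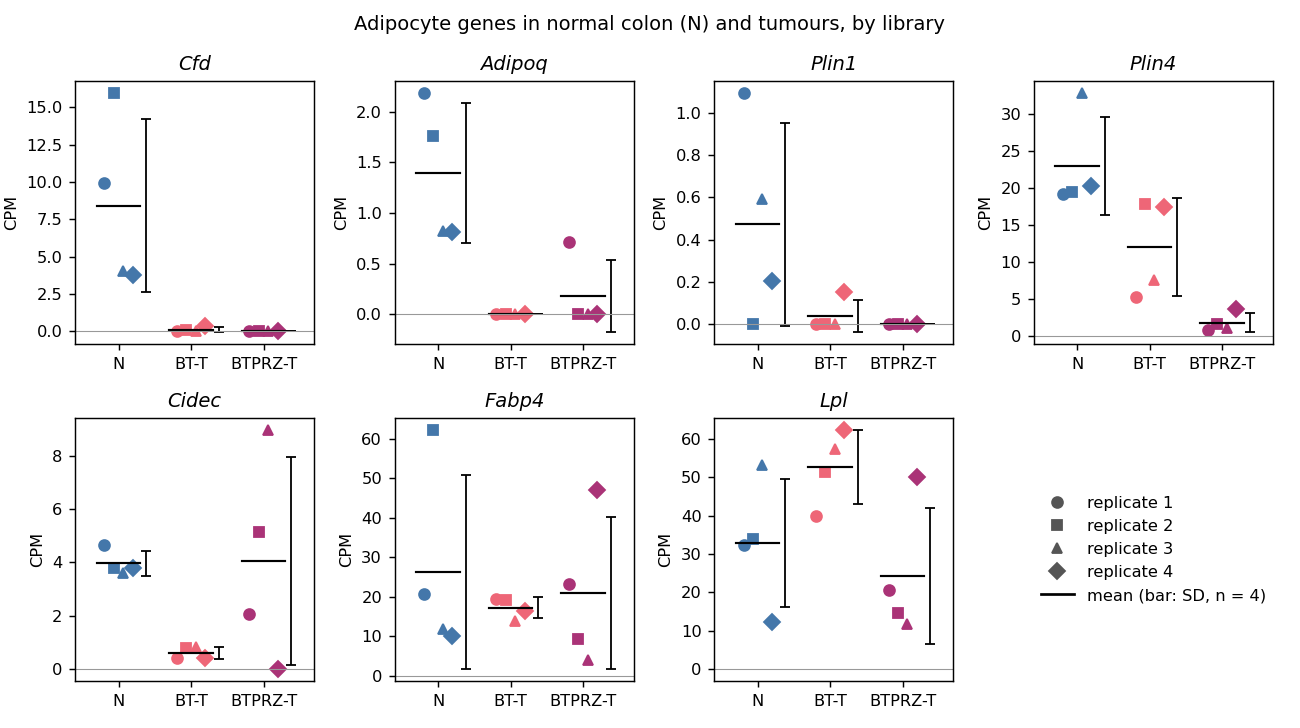
Level in CPM of each adipocyte gene (vertical axes, 1 panel per gene, each with its own scale) in the 4 libraries of N, BT-T and BTPRZ-T (horizontal axis); symbols are libraries, horizontal lines are means and bars are the SD. Cfd and Adipoq lie above all tumour libraries in every N library, Plin4 is lowest in BTPRZ-T, Cidec is lower in BT-T than in N, and Fabp4 and Lpl overlap between N and both tumour groups.

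The design compared each tumour genotype with normal colon, and both comparisons share the N libraries. In BT-T, 2 of the 6 tested members, Cfd and Adipoq, were called lower and none higher, where 2.9% of all tested genes were called lower. Every BT-T library lay below every N library for 4 of 6 (Cfd, Adipoq, Plin4 and Cidec), against 9.02% of all tested genes. In BTPRZ-T, 2 of 6, Cfd and Plin4, were called lower and none higher, where 6.18% of genes were called lower. Every BTPRZ-T library lay below every N library for 3 of 6 (Cfd, Adipoq and Plin4), against 7.64% of genes. Between the tumour groups, 1 of 6, Plin4, was called lower in BTPRZ-T, where 0.599% of genes were called lower. It was also the member whose libraries did not overlap in that direction, against 12.7% of genes. The members' median log2 fold change was -1.81 in BT-T against N, -1.73 in BTPRZ-T against N and -0.42 between the tumours, and stayed so with Cfd and Adipoq set to their bounds at 3 reads where a group held no read. The medians over all tested genes were -0.10, -0.10 and -0.03.

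**Figure D2:**
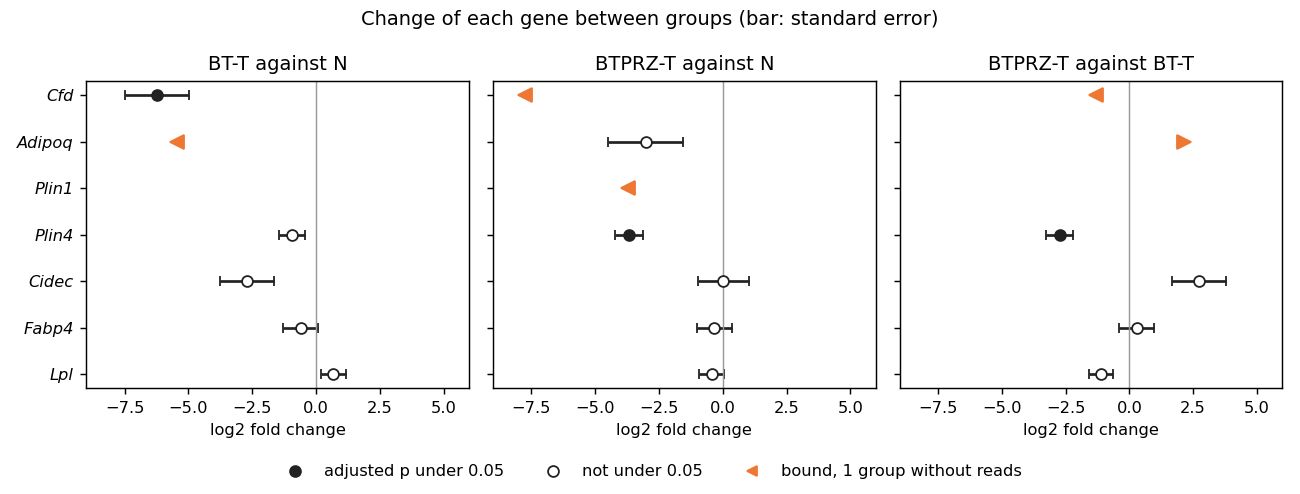
Log2 fold change of each adipocyte gene (horizontal axes) in the 3 comparisons, with the standard error as a bar; filled points have an edgeR adjusted p under 0.05, and triangles are bounds set at 3 reads over a group without reads, Plin1 being shown only where it has such a bound. Cfd lies at -6.22 in BT-T and has a bound of -7.75 in BTPRZ-T, Plin4 is filled in both comparisons of BTPRZ-T, and Fabp4 and Lpl, between -1.12 and 0.68, are open points throughout.

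The secreted members were Cfd and Adipoq. Cfd encodes adipsin, complement factor D, the serine protease that cleaves factor B in the alternative complement pathway. It lies on chromosome 10, 79890853 to 79892655, plus strand of GRCm38. Cfd had 173, 236, 68 and 56 reads in N replicates 1 to 4, or 9.95, 16.0, 4.02 and 3.78 CPM. It had 0, 2, 0 and 7 reads in BT-T replicates 1 to 4, and no read in any BTPRZ-T library. The highest BT-T library, replicate 4 with 0.354 CPM, lay below the lowest N library, and N itself spanned 4.23-fold. Cfd fell in BT-T by 6.22 ± 1.26 on the log2 scale (edgeR adjusted p = 0.0162), from a mean of 8.43 ± 5.78 to 0.113 ± 0.167 CPM. It lost the call without BT-T replicate 2 (adjusted p = 0.0660). In BTPRZ-T it was at least 215-fold lower than in N, with the floor set at 3 reads over the group (edgeR adjusted p = 0.00472). It kept that call whichever library was left out (adjusted p 0.00308 to 0.0151). A count of 0 allows up to 3 reads, or 0.0387 CPM over the BTPRZ-T group, and such floors and counting intervals cover counting error only. Between the tumours, 9 reads stood against 0, at least 2.50-fold lower in BTPRZ-T (edgeR adjusted p = 0.279). On the strand opposite to the gene, BTPRZ-T replicate 4 held 19 reads at Cfd and the N libraries held none. Counted without strand, which adds those reads, the log2 fold change of Cfd in BTPRZ-T against N was -5.23 (edgeR adjusted p = 0.0405), smaller than the bound from the stranded counts, and between the tumours it turned from below 0 to 0.99 (adjusted p = 0.742).

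Adipoq encodes adiponectin, the hormone of fat cells that raises insulin sensitivity, and lies on chromosome 16, 23146536 to 23158028, plus strand. It had 38, 26, 14 and 12 reads in N replicates 1 to 4, or 2.19, 1.76, 0.826 and 0.810 CPM. No BT-T library held a read, and in BTPRZ-T all 11 reads came from replicate 1, at 0.710 CPM. Every tumour library thus lay below every N library, and BTPRZ-T replicate 1 lay just under the lowest of them. Adipoq was at least 43.7-fold lower in BT-T than in N (edgeR adjusted p = 0.0445). This call was near the threshold and was lost without N replicates 1, 3 or 4 or any 1 of the 4 BT-T libraries (adjusted p 0.0610 to 0.111). In BTPRZ-T the log2 fold change was -3.02 ± 1.47, with means of 1.40 ± 0.689 and 0.177 ± 0.355 CPM, and was not called (edgeR adjusted p = 0.239). Without BTPRZ-T replicate 1, no BTPRZ-T library held a read and the adjusted p was 0.0226. Without the 3 sparse libraries it was 0.0122, and limma with voom on all libraries called Adipoq lower (adjusted p = 0.0143). Between the tumours, 11 reads of 1 library against 0 gave at least 4.40-fold more in BTPRZ-T (edgeR adjusted p = 0.269).

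The members that coat or enlarge lipid droplets were Plin1, Plin4 and Cidec. Plin1 encodes perilipin 1, which guards the droplet of fat cells from lipases until it is phosphorylated (chromosome 7, 79720218 to 79732903, minus strand). It had 19, 0, 10 and 3 reads in N replicates 1 to 4, and 0, 0, 0 and 3 reads in BT-T replicates 1 to 4. BTPRZ-T held none. N replicate 2, the N library with the most Cfd, thus held no Plin1, and N overlapped both tumour groups at 0. The 32 reads of N against 3 of BT-T gave a ratio of 15.5 (95% counting interval 4.86 to 79.2), and N was at least 12.9-fold higher than BTPRZ-T. These compare the reads and not the spread between libraries. Fitted without the low count filter, the edgeR adjusted p was 0.259 for BT-T and 0.0774 for BTPRZ-T. Without the 3 sparse libraries, of which N replicate 2 is one, Plin1 passed the filter, with adjusted p = 0.0257 and 0.0325.

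Plin4, a perilipin that coats nascent droplets in fat cells and is also made in muscle, lies on chromosome 17, 56100591 to 56109803, minus strand. In N replicates 1 to 4 it stood at 19.3, 19.6, 32.9 and 20.3 CPM (335, 289, 557 and 301 reads). In BT-T it stood at 5.22, 17.9, 7.53 and 17.5 CPM, and in BTPRZ-T at 0.839, 1.58, 1.10 and 3.66 CPM (13, 33, 20 and 84 reads). The 3 groups did not overlap. BT-T replicates 2 and 4 lay just under the lowest N library, and replicates 1 and 3 lay lower. In BTPRZ-T Plin4 fell from 23.0 ± 6.60 to 1.80 ± 1.28 CPM (log2 fold change -3.66 ± 0.56, edgeR adjusted p = 0.00163). It kept this call whichever library was left out (adjusted p 0.000810 to 0.00808). In BT-T, at 12.03 ± 6.60 CPM, the log2 fold change was -0.94 ± 0.50 and was not called (edgeR adjusted p = 0.273). Plin4 was lower in BTPRZ-T than in BT-T by a log2 fold change of -2.73 ± 0.54 (edgeR adjusted p = 0.0438), and this contrast equally tests whether its 2 changes from N were unequal. That call was lost when any 1 of 9 libraries was omitted, N replicates 1, 3 and 4, BT-T replicates 1, 2 and 4, and BTPRZ-T replicates 1, 2 and 3 (adjusted p 0.0579 to 0.164). Plin4 shares 17 exon bases with Hdgfl2 on the other strand. Beside these values, 10 smooth muscle markers summed to 8371 to 19748 CPM in N, with 4076 to 6610 in BT-T and between 596 and 5169 in BTPRZ-T. In BT-T edgeR called 0 of the 10, with 3 at an unadjusted p under 0.05, 1 by DESeq2 and 0 by voom. In BTPRZ-T it called 7, all lower, where 6.18% of all tested genes were called lower. The numbers called were 4 and 10 without the 3 sparse libraries. Of 4 tested skeletal muscle markers, Ckm, the creatine kinase of striated muscle, was called lower in both tumour groups, from 32.6 ± 15.6 CPM in N to 6.73 ± 2.72 (BT-T) and 1.23 ± 0.851 (BTPRZ-T) (edgeR adjusted p = 0.0384 and 0.00137). Its BT-T call was lost without N replicates 1 or 3, BTPRZ-T replicate 2 or any BT-T library (adjusted p 0.0557 to 0.122). The other 3 had means above N in both tumour groups and were not called. Acta1, skeletal actin, stood at 8.06 ± 4.83, 19.6 ± 8.83 and 15.5 ± 4.74 CPM, and the fibre genes Tnnt3 and Mylpf had 4 and 16 reads in N, with 79 and 43 in BT-T and 6 and 51 in BTPRZ-T. The median log2 fold change of the 4 was 1.04 in BT-T and 0.73 in BTPRZ-T against N, and without the 3 sparse libraries 3 and 1 of them were called. The part of muscle in the Plin4 result was not tested.

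Cidec, on chromosome 6, 113424634 to 113435760, minus strand, encodes the protein that moves lipid between touching droplets and so makes the single large droplet of white fat cells. In N replicates 1 to 4 it stood at 4.66, 3.79, 3.60 and 3.78 CPM, the narrowest spread of the members (highest over lowest 1.29). In BT-T it stood at 0.418, 0.779, 0.832 and 0.405 CPM (12, 16, 20 and 8 reads), each library below N. In BTPRZ-T it stood at 2.06, 5.12, 8.98 and 0 CPM (32, 107, 163 and 0 reads). BTPRZ-T libraries lay on both sides of N, and replicate 4 held no read among 21160052 gene reads. That library had reads of the fewest genes of all, 13450. Cidea, a relative of Cidec, also had no read there, and 28 to 42 reads in each other BTPRZ-T library. The log2 fold change in BT-T was -2.69 ± 1.06 and was not called (edgeR adjusted p = 0.143). Without BTPRZ-T replicate 4, which is outside that comparison and adds to the shared estimate of the spread, the adjusted p was 0.00647. With N and BT-T alone in the fit it was 0.00630, DESeq2 gave 0.0260, and without the 3 sparse libraries it was 0.000540. BTPRZ-T against N gave 0.03 ± 0.98 (edgeR adjusted p = 0.990), a value whose sign depended on the setting, from -1.87 with voom to 0.85 without the 3 sparse libraries. BTPRZ-T against BT-T gave 2.72 ± 1.06 (adjusted p = 0.221). That adjusted p was 0.0305 without BTPRZ-T replicate 4 and 0.00207 without the 3 sparse libraries. The highest Cidec level of all 12 libraries was in BTPRZ-T replicate 3, where Cfd, Adipoq and Plin1 had no read.

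Fabp4 and Lpl, which handle fatty acids inside and outside the cell, were not called in any comparison. Fabp4 (chromosome 3, 10204088 to 10208576, minus strand) encodes the cytosolic carrier also named aP2. It stood at 20.7, 62.3, 11.8 and 9.98 CPM in N replicates 1 to 4, at 19.5, 19.1, 13.9 and 16.2 CPM in BT-T, and at 23.3, 9.38, 3.96 and 47.0 CPM in BTPRZ-T. The groups overlapped, and the spread was 6.24-fold within N and 11.9-fold within BTPRZ-T against 1.40-fold within BT-T. Fabp4 had log2 fold changes of -0.61 ± 0.70 in BT-T and -0.32 ± 0.69 in BTPRZ-T, against N (edgeR adjusted p = 0.654 and 0.840). N replicate 2 set much of the N mean, which was 26.2 ± 24.5 CPM with it and 14.2 ± 5.71 CPM without it. Both signs turned when it was left out, to 0.28 in BT-T and 0.56 in BTPRZ-T (adjusted p = 0.848 and 0.507). Without the 3 sparse libraries the values were 0.34 and -1.005 (adjusted p = 0.481 and 0.0827). Between the tumours the value was 0.28 ± 0.69 (edgeR adjusted p = 0.851). It turned to -0.53 without BTPRZ-T replicate 4 and to -1.35 without the 3 sparse libraries (adjusted p = 0.691 and 0.0355).

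Lpl (chromosome 8, 68880491 to 68907448, plus strand) encodes lipoprotein lipase. It stood at 32.3, 33.8, 53.1 and 12.3 CPM in N replicates 1 to 4, at 40.0, 51.4, 57.3 and 62.4 CPM in BT-T, and at 20.6, 14.6, 11.7 and 50.2 CPM in BTPRZ-T. BT-T lay above 3 of the N libraries and overlapped with N replicate 3, and BTPRZ-T replicate 4 lay with BT-T and apart from the other 3 BTPRZ-T libraries. The log2 fold change was 0.68 ± 0.48 in BT-T (edgeR adjusted p = 0.413), -0.44 ± 0.48 in BTPRZ-T (adjusted p = 0.642) and -1.12 ± 0.48 between the tumours (adjusted p = 0.266). The last was -2.001 without the 3 sparse libraries (adjusted p = 0.0174). BTPRZ-T replicate 4 was the highest BTPRZ-T library for Fabp4, Lpl and the summed macrophage markers, which reached 2704 CPM there and 359 to 1103 CPM in the other BTPRZ-T libraries. It was also the highest of them for endothelial markers (601 CPM against 280 to 387), fibroblast markers (5864 against 1313 to 2421) and smooth muscle markers (5169 against 596 to 3523). N replicate 2 was the highest N library for Fabp4, for macrophage markers, at 637 CPM against 170 to 372, and for smooth muscle markers, and the lowest for endothelial markers, at 154 CPM against 188 to 226. The part of these cell types in the Fabp4 and Lpl values was not tested.

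**Figure D3:**
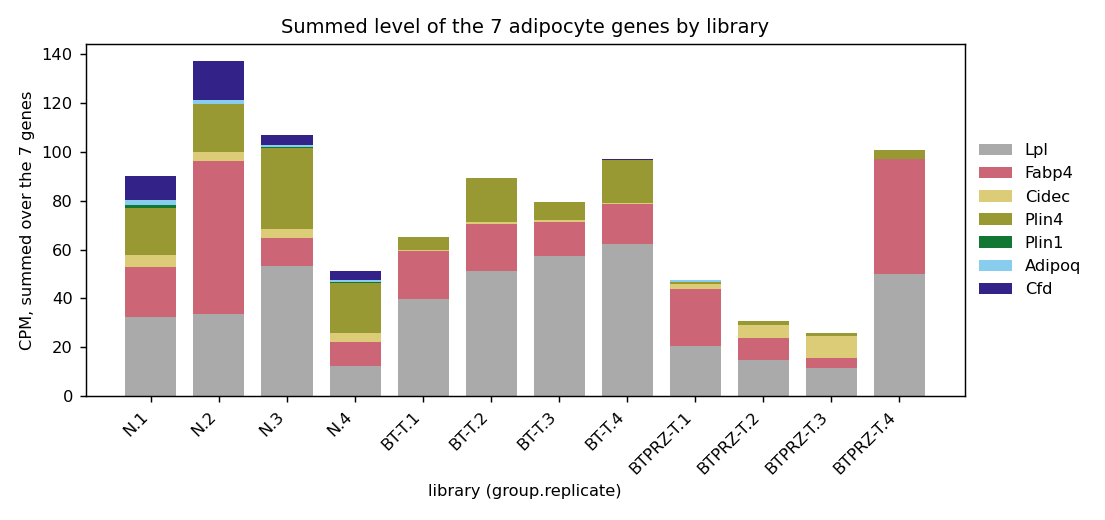
Summed CPM of the 7 adipocyte genes (vertical axis) in each of the 12 libraries (horizontal axis), with 1 colour per gene. Lpl and Fabp4 make up most of every tumour bar (60.9 to 96.4%), and the Cfd segment, at 3.78 to 16.0 CPM, is visible in N and too small to see in tumours.

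The sum over the 7 genes was 96.3 ± 35.9 CPM in N, with 82.7 ± 13.7 in BT-T and 51.2 ± 34.4 in BTPRZ-T, and the ranges overlapped (51.1 to 137, 65.1 to 97.0 and 25.8 to 101 CPM). Lpl and Fabp4 made up 43.5 to 70.1% of it in N, with 79.0 to 91.3% in BT-T and between 60.9 and 96.4% in BTPRZ-T. Over the other 5 members the sum was 37.3 ± 5.96 CPM in N, with 12.8 ± 6.78 in BT-T and 6.01 ± 3.07 in BTPRZ-T. These N libraries, at 28.9 to 41.9 CPM, all lay above BT-T, at 5.64 to 18.8 CPM, and BTPRZ-T, at 3.61 to 10.1 CPM.

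The members also differed from each other in their profiles. Likeness was measured as the root mean square difference of log2 CPM, centred on each gene's own mean, over the 12 libraries. The closest pair was Fabp4 and Lpl, 0.92 log2 units apart. Cfd and Adipoq were 1.58 apart, and Cfd and Lpl, the farthest pair, 2.92. Each member lay 1.18 (Adipoq) to 2.05 (Cfd) from the mean profile of the other members, and the median over all other tested genes from the members' mean profile was 1.31. The 10 genes nearest to that mean profile were Hsd17b13 (0.24 log2 units), Cth (0.39), Acads, Ncoa7, Ethe1, Maoa, Tst, Abhd6, Bdh1 and Mettl7b (0.46 to 0.49). Hsd17b13, which encodes a lipid droplet protein known from liver, stood at a mean of 124, 35.5 and 22.5 CPM in N, BT-T and BTPRZ-T. Maoa, a monoamine oxidase of the mitochondrial outer membrane, stood at 668, 159 and 81.9 CPM.

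**Figure D4:**
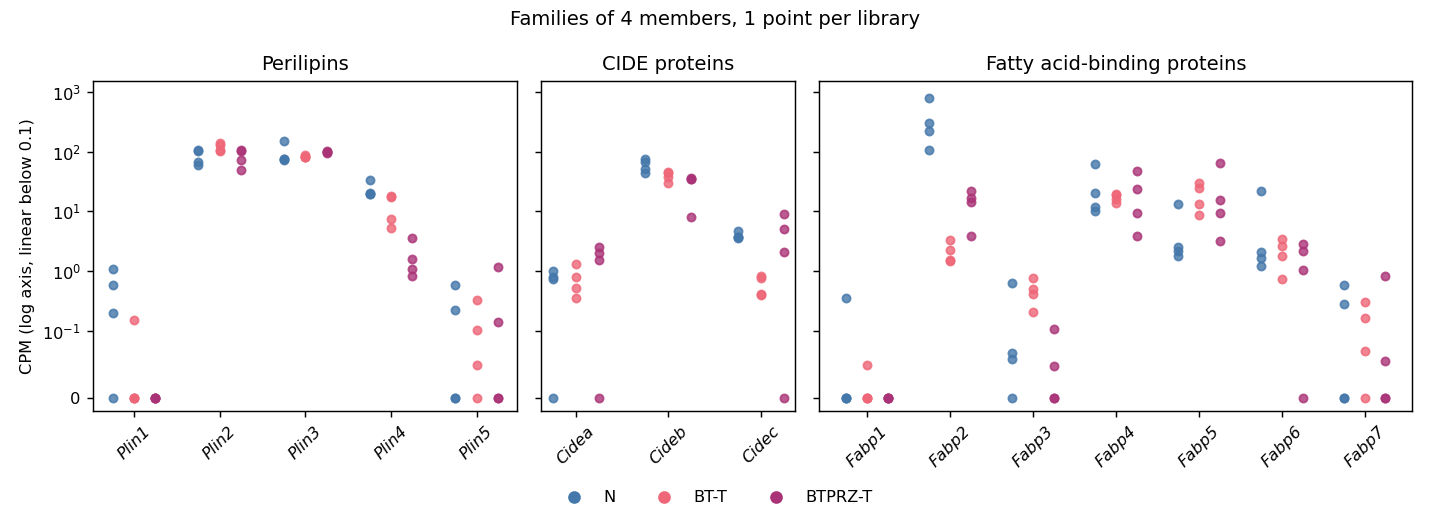
CPM of the perilipin, CIDE and fatty acid-binding protein genes (vertical axis, logarithmic above 0.1 CPM and linear below), with 1 point per library and 1 colour per group. Plin2 and Plin3 have group means of 82.2 to 119 CPM while every Plin1 and Plin4 point is lower, and Fabp2 is far lower in tumours while Fabp4 overlaps.

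The tested relatives of Plin1, Plin4 and Cidec that other cells express were not called. Plin2, the perilipin found on droplets of most cells, stood at 84.3 ± 23.8 CPM in N, with 119 ± 16.7 in BT-T and 82.2 ± 26.5 in BTPRZ-T. Plin3, the other broadly expressed perilipin, stood at 93.3 ± 38.1, 82.5 ± 2.77 and 97.1 ± 2.50 CPM. Plin5, the perilipin of oxidative tissue, had 14, 12 and 21 reads over the groups, too few to be tested. Cideb, the CIDE gene of liver and gut, stood at 59.1 ± 14.3, 39.0 ± 6.76 and 28.5 ± 13.6 CPM. Cidea, of brown fat, stood at 0.640 ± 0.441, 0.756 ± 0.426 and 1.53 ± 1.11 CPM. Of the 8 tested lipid droplet genes outside the members, edgeR called 0 in each comparison. At an unadjusted p under 0.05 there were 0 in BT-T and 1 in BTPRZ-T against N, and 0 between the tumours. DESeq2 called 0, 1 and 0, limma with voom 0 in each, and edgeR without the 3 sparse libraries 2, 2 and 1.

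Among 3 tested relatives of Fabp4, 1 fell in each tumour group, where 2.9% (BT-T) and 6.18% (BTPRZ-T) of all tested genes were called lower. Fabp2, the carrier of enterocytes, had log2 fold changes of -7.32 ± 0.78 in BT-T and -4.61 ± 0.68 in BTPRZ-T against N (edgeR adjusted p = 0.000352 and 0.00143). Fabp5, of macrophages, skin and fat, stood at 4.96 ± 5.50, 18.8 ± 9.63 and 23.1 ± 28.0 CPM and was not called (adjusted p = 0.206 and 0.133 against N). Fabp6, the ileal bile acid carrier, stood at 6.76 ± 10.2, 2.17 ± 1.18 and 1.51 ± 1.25 CPM. Fabp1 had 6, 1 and 0 reads, Fabp3 13, 43 and 3, and Fabp7 15, 12 and 14. Of the 3 relatives, 2 and 1 were called without the 3 sparse libraries. Among 3 tested relatives of Lpl and other lipases, Lipg, endothelial lipase, fell in both tumour groups, by 1.30 ± 0.29 (edgeR adjusted p = 0.0173) and 1.61 ± 0.30 (adjusted p = 0.00454). Its call in BT-T was lost without N replicates 1 or 3 or BT-T replicate 3 (adjusted p 0.0509 to 0.0644). Lipc, hepatic lipase, rose in BTPRZ-T by 2.76 ± 0.83 (edgeR adjusted p = 0.0494), from 0.262 ± 0.181 to 1.81 ± 0.705 CPM, and kept the call only without N replicate 2 or BTPRZ-T replicate 4 among the 12 fits that omit 1 library (adjusted p 0.0587 to 0.125 in the others). Lipa, the lysosomal lipase, stood at 60.6 ± 15.2, 86.3 ± 19.4 and 74.1 ± 9.47 CPM and was not called.

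Pparg, the regulator of the fat cell programme, stood at 96.2 ± 59.4 CPM in N, with 47.0 ± 6.98 in BT-T and 64.1 ± 21.8 in BTPRZ-T (edgeR adjusted p = 0.132 and 0.398 against N), and colonocytes are known to express it. Cebpa stood at 37.8 ± 10.5, 33.9 ± 3.59 and 35.7 ± 8.02 CPM (adjusted p = 0.763 and 0.893). Of 11 tested regulators, 1 fell in BT-T, where 2.9% of all tested genes were called lower. It was the carbohydrate sensor Mlxipl (-1.34 ± 0.32, edgeR adjusted p = 0.0218). It lost the call without N replicate 1 or any BT-T library other than replicate 2 (adjusted p 0.0503 to 0.0765). In BTPRZ-T edgeR called 0 of 11, with 2 at an unadjusted p under 0.05, and DESeq2 and voom called 0. Without the 3 sparse libraries, edgeR called 3 in BT-T and 3 in BTPRZ-T.

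Of 7 other adipokines and white fat markers, 4 were tested. Car3, a carbonic anhydrase abundant in fat and slow muscle, fell in BT-T from 10.4 ± 5.99 to 0.513 ± 0.177 CPM (log2 fold change -4.33 ± 0.75, edgeR adjusted p = 0.00399). In BTPRZ-T it had 2 reads against 690 in N, a ratio of N to BTPRZ-T of 418 (95% counting interval 115 to 3460; edgeR adjusted p = 0.000459), and both calls were kept whichever library was left out. Rbp4, the retinol carrier made by liver, fat and other cells, fell in BT-T by 2.27 ± 0.49 (edgeR adjusted p = 0.0133; 0.0550 without BT-T replicate 2). In BTPRZ-T Rbp4 stood at 25.7 ± 18.98 CPM against 30.8 ± 12.7 in N (adjusted p = 0.799). Tusc5, a gene of insulin-driven glucose transport in fat, stood at 1.61 ± 0.648, 2.80 ± 0.605 and 3.32 ± 1.08 CPM and Acvr1c, an activin receptor of fat, at 8.10 ± 6.16, 5.63 ± 1.18 and 2.09 ± 1.96 CPM. Neither was called. Of the 4, 2 and 3 were called in BT-T and BTPRZ-T without the 3 sparse libraries. Of 3 tested brown fat genes, Ppargc1a, Prdm16 and Dio2, edgeR called 0 in each comparison, with 0 at an unadjusted p under 0.05 and 0 by DESeq2 and voom. Without the 3 sparse libraries, 1, 2 and 0 were called.

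Among 5 tested lipolysis genes, 2 fell in BTPRZ-T, where 6.18% of all tested genes were called lower. The adrenergic receptor Adrb3 fell by 4.20 ± 1.08, from 2.22 ± 1.45 to 0.113 ± 0.140 CPM (edgeR adjusted p = 0.0252), and lost the call without N replicate 1 or BTPRZ-T replicate 3 (adjusted p 0.0506 to 0.0565). The monoglyceride lipase Mgll fell by 1.36 ± 0.40 (edgeR adjusted p = 0.0464) and lost the call in all fits that omit 1 library other than N replicate 2 or BTPRZ-T replicate 4 (adjusted p 0.0627 to 0.130). The hormone-sensitive lipase Lipe stood at 13.8 ± 5.14, 14.7 ± 0.507 and 9.30 ± 3.86 CPM, and the triglyceride lipase Pnpla2 at 175 ± 82.0, 165 ± 15.1 and 156 ± 28.9 CPM. Neither was called. In BT-T edgeR called 0 of the 5, with 1 at an unadjusted p under 0.05, 1 by DESeq2 and 0 by voom. The numbers called without the 3 sparse libraries were 1 in BT-T and 3 in BTPRZ-T.

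Among 14 genes of fatty acid and triglyceride synthesis, 2 fell in BT-T and 4 in BTPRZ-T, and none rose. Over all tested genes, 2.9% were called lower in BT-T and 6.18% in BTPRZ-T. The fits without the 3 sparse libraries called 7 and 8. Pck1, which supplies glycerol phosphate in fat cells and is also an enterocyte enzyme, fell in BTPRZ-T from 194 ± 37.7 to 47.1 ± 12.5 CPM (-2.05 ± 0.27, edgeR adjusted p = 0.000741). Thrsp, a lipogenic gene of fat and liver, fell there by 4.58 ± 1.01 (edgeR adjusted p = 0.0120), from 87 reads in N to 4. Dgat1, a triglyceride synthase, fell by 0.88 ± 0.22 in BT-T and 0.79 ± 0.22 in BTPRZ-T (edgeR adjusted p = 0.0272 and 0.0351). Elovl6, a fatty acid elongase, fell by 1.16 ± 0.32 and 1.09 ± 0.32 (adjusted p = 0.0422 and 0.0440). Of the 12 fits that omit 1 library, the call of Dgat1 in BT-T was lost in 4 (N replicate 1 and BT-T replicates 2, 3 and 4) and that in BTPRZ-T was kept in 4 (N replicate 2, BT-T replicates 1 and 4 and BTPRZ-T replicate 1). The calls of Elovl6 were kept in 3 each, N replicate 2 with BTPRZ-T replicates 3 and 4 for BT-T, and N replicate 2 with BTPRZ-T replicates 2 and 3 for BTPRZ-T. Dgat2, the other triglyceride synthase, stood at 42.5 ± 13.1, 47.6 ± 1.92 and 56.8 ± 25.2 CPM and was not called.

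Among 8 genes of fatty acid and glucose uptake, 1 rose in each tumour group. Of all 14860 tested genes, 1274 were called in BT-T against N, 431 of them lower. The number called higher in BTPRZ-T against N is not given here, so the rise there has no share beside it. Angptl4, a secreted inhibitor of lipoprotein lipase, rose in BT-T by 2.91 ± 0.76, from 3.56 ± 3.72 to 26.8 ± 10.7 CPM (edgeR adjusted p = 0.0329). It lost the call without N replicates 1, 3 or 4 or any BT-T library (adjusted p 0.0553 to 0.0907). Gpihbp1, which holds lipoprotein lipase on capillaries, rose in BTPRZ-T by 2.58 ± 0.71, from 1.46 ± 1.57 to 8.78 ± 4.29 CPM (edgeR adjusted p = 0.0335). It kept the call without BTPRZ-T replicate 3, N replicate 2 or either of BT-T replicates 2 and 4, and lost it without any of the others (adjusted p 0.05003 to 0.0861). The fatty acid transporter Cd36 stood at 19.2 ± 6.98, 15.5 ± 6.94 and 7.49 ± 9.76 CPM and was not called. Of the 8 genes, 3 and 4 were called without the 3 sparse libraries.

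Partners of the 2 secreted members were also measured. In the alternative complement pathway, in which Cfd acts, the receptor C3ar1 rose by 4.03 ± 0.71 in BT-T and 3.14 ± 0.69 in BTPRZ-T against N on the log2 scale (edgeR adjusted p = 0.00427 and 0.0115). C5ar1 rose by 2.50 ± 0.63 and C3, the central component, by 2.68 ± 0.70 in BT-T (adjusted p = 0.0283 and 0.0342), and both calls were lost in the 5 fits without N replicate 1, N replicate 3 or any BT-T library other than replicate 1. Factor B, Cfb, the substrate of Cfd, stood at 159 ± 34.4, 239 ± 47.6 and 199 ± 18.7 CPM and was not called. C3ar1 and C5ar1 are known in myeloid cells, and 5 and 4 of 10 macrophage markers rose in BT-T and BTPRZ-T. Over all 14860 tested genes, 1274 were called in BT-T against N, 431 of them lower. In BT-T, Emr1 and Csf1r kept their calls in all 12 fits that omit 1 library, and each other marker lost its call in 4 to 9. In BTPRZ-T each call was lost in 2 to 4 of the 12. Limma with voom called 5 markers in BT-T and 2 in BTPRZ-T, and DESeq2 9 and 6. Of the 3 adiponectin receptors, Cdh13, a cadherin that binds adiponectin, rose by 1.97 ± 0.55 in BT-T and 3.04 ± 0.57 in BTPRZ-T (edgeR adjusted p = 0.0431 and 0.00512). The BT-T call was kept without N replicate 2 or BTPRZ-T replicate 4 and lost without any other library (adjusted p 0.0543 to 0.134). Adipor1 (220 ± 48.2, 225 ± 12.5 and 288 ± 25.3 CPM) and Adipor2 (310 ± 64.4, 252 ± 24.9 and 297 ± 80.9 CPM) were not called. Of the 3 receptor genes, 2 were called in each tumour group without the 3 sparse libraries.

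**Figure D5:**
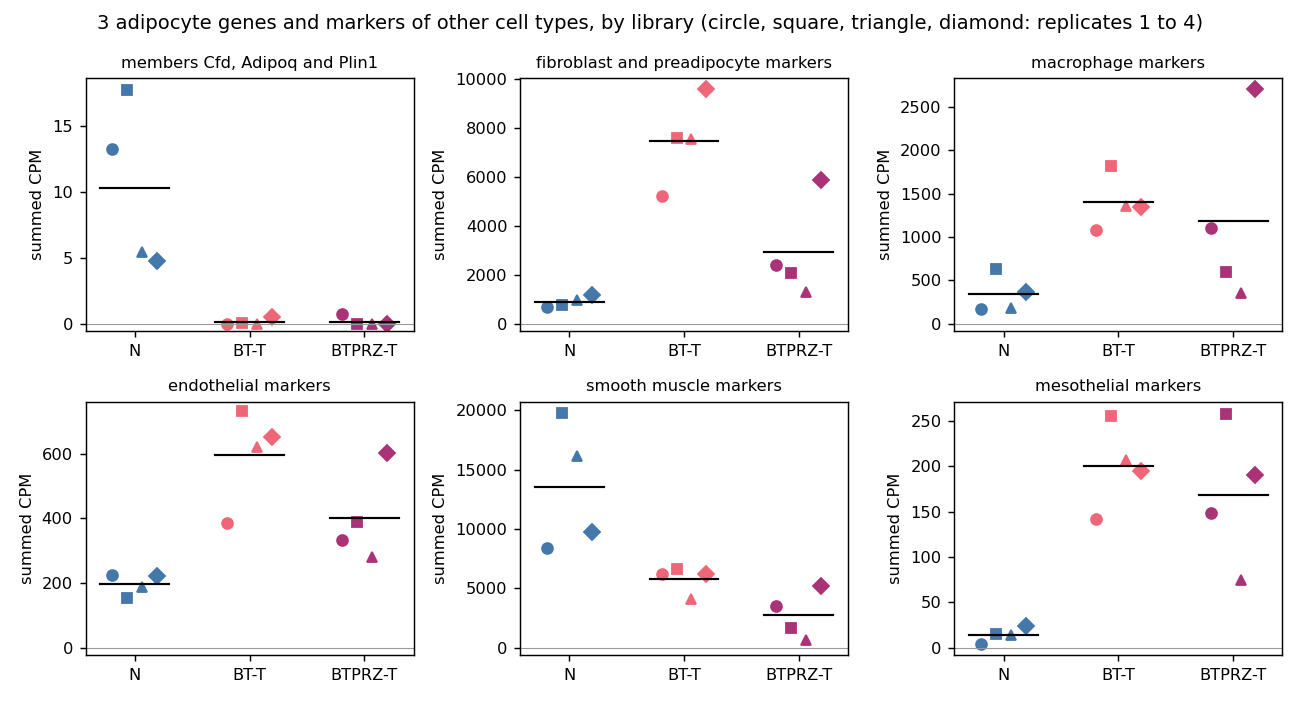
Summed CPM (vertical axes, each with its own scale) of Cfd, Adipoq and Plin1 and of marker genes of 5 other cell types in each library, with lines at the group means. The 3 adipocyte genes sum to at most 0.710 CPM in every tumour library. The sums of fibroblast, endothelial and mesothelial markers are higher than in every N library, the mesothelial sum being mostly Msln, and those of smooth muscle markers are lower.

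The other tissue in the samples moved in several directions beside the members. Markers of fibroblasts and preadipocytes summed to 681 to 1164 CPM in N, with 5233 to 9591 in BT-T and between 1313 and 5864 in BTPRZ-T. Of 10, 6 rose in BT-T, and in BTPRZ-T 3 rose (Col1a1, Col1a2 and Dcn, matrix genes) and 2 fell (Dpp4 and Dlk1). The 6 BT-T calls were kept in all 12 fits that omit 1 library. In BTPRZ-T the call of Dcn was lost in 9 of the 12, and those of Col1a1 and Col1a2 without N replicate 1. Over all 14860 tested genes, edgeR called 1274 in BT-T against N, 431 of them lower, and called 919 lower in BTPRZ-T against N. The number called higher in BTPRZ-T is not given here, so counts of rises there have no share beside them. Genes known in fat cell progenitors differed in direction, and the counts do not tell which cells their reads came from. Dpp4 stood at 70.7 ± 6.83, 43.7 ± 17.4 and 14.7 ± 7.40 CPM in N, BT-T and BTPRZ-T, and Dlk1 at 2.49 ± 2.13, 1.01 ± 0.382 and 0.162 ± 0.165 CPM, its call being lost without N replicate 4 or BTPRZ-T replicates 2 or 3 (edgeR adjusted p 0.0535 to 0.0731). Cd34 rose in BT-T (27.8 ± 5.998, 93.8 ± 22.9 and 51.1 ± 20.3 CPM), and Pi16, at 5.01 ± 4.46, 53.9 ± 55.8 and 28.8 ± 47.5 CPM, was not called. Endothelial markers summed to 154 to 226, 384 to 730 and 280 to 601 CPM, with 4 of 10 higher in BT-T and 2 in BTPRZ-T. Of these, Cdh5 kept its call in both tumour groups whichever library was left out. The BT-T calls of Emcn, Pecam1 and Tie1 were lost in 3, 4 and 7 of the 12 fits, and the BTPRZ-T call of Emcn in 6. Macrophage markers summed to 170 to 637, 1085 to 1817 and 359 to 2704 CPM. Mesothelial markers, of the lining that covers the outer gut wall and mesentery, summed to 4.14 to 24.1, 142 to 255 and 74.6 to 258 CPM. In tumours most of this was Msln, which epithelial tumours can also express (3.35 ± 2.28, 167 ± 47.6 and 157 ± 80.1 CPM), while Lrrn4 had 133, 48 and 1 reads. Msln was called higher in both tumour groups against N (edgeR adjusted p = 0.000495 and 0.000384). Lrrn4 was called lower in BTPRZ-T against N (edgeR adjusted p = 0.0279), and lost that call in 6 of the 12 fits that omit 1 library. Upk1b (4.49 ± 3.04, 22.4 ± 23.2 and 9.19 ± 5.61 CPM) and Wt1 (0.620 ± 0.543, 7.97 ± 3.99 and 1.59 ± 1.59 CPM) had higher means in both tumour groups. Upk3b had lower ones (3.54 ± 4.33, 1.79 ± 1.72 and 0.446 ± 0.864 CPM), and edgeR called none of Upk1b, Wt1 and Upk3b. Epithelial markers summed to 10091 to 12469, 8557 to 10255 and 7375 to 15827 CPM. Without the 3 sparse libraries the numbers called in BT-T and BTPRZ-T were 8 and 6 of 10 for fibroblasts, 7 and 5 of 10 for endothelium, 8 and 5 of 10 for macrophages, 3 and 3 of 5 for mesothelium, and 3 and 4 of 7 for epithelium. The amount of fat, muscle or outer wall taken with each sample is not given in the labels, and its part in the levels of the 7 members was not tested.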

How the data were processed

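Per the labels' protocols, a stranded poly(A) kit was used on total RNA and reads were single-end. Per the submitters' processing notes, the tools were bcl2fastq 2.20, the aligner STAR 2.4.2a with the mm10 genome, edgeR 3.16.5, limma and HTSeq. The authors deposited raw read counts per gene, with 1 unstranded and 2 stranded columns and no normalization, and reads at several places count for no gene. No source used here names the gene annotation.

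Counts came from the stranded column that held more gene reads, and the opposite column held 0.819 to 0.994% of that number. Genes were filtered with filterByExpr, by group, which kept 14860 of 24054. A quasi-likelihood model with TMM factors and robust estimation (edgeR 4.0.16, R 4.3.3) took all 12 libraries and fitted a mean for each group. Tests were two-sided and adjusted by Benjamini-Hochberg. The common biological coefficient of variation was 0.501. The pipeline was tested on simulated counts. Each ± after a CPM is the SD over 4 libraries. After an edgeR log2 fold change it is a standard error worked back from the quasi-likelihood F statistic, as the absolute change over the root of F. A group without reads gives a fold bound at 3 reads over the group, and a group with 1 to 3 reads a ratio with its 95% counting interval. Alternatives used RLE or upper quartile factors, other filters, the unstranded column, a replicate term, the 2 compared groups alone, no robust estimation, DESeq2 1.42.0, limma 3.58.1 with voom, and fits without libraries.

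The members and gene lists were chosen with earlier results of these data known. By rule, genes of each list were drawn from up to 4 tested genes with the lowest p against N, of which not all are named. The rule adds a fixed set of relatives and partners such as Plin2, Fabp5, Cfb and Adipor1. Chosen after their values were seen were Dpp4, Dlk1, Cd34, Pi16, Orm1 and Upk3b. A gene that this rule names, and the count of its list, are not reported here. The 10 genes most like the members were taken by the distance given in the text, on log2 CPM with a prior count of 2. For 1 list symbol the older symbol in the files was taken (Emr1). Gene positions and transcript lengths were looked up by symbol in GENCODE M21 (GRCm38).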

Additional observations from a re-analysis of the deposited data

Results flagged for a closer look

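Adipoq stood at 0.710 CPM in BTPRZ-T replicate 1 and at 0 in the other 3 BTPRZ-T libraries, a gap wide for the range of the group. Plin1 stood at 0.152 CPM (3 reads) in BT-T replicate 4 and at 0 in the other 3 BT-T libraries. Plin4 stood at 32.9 CPM in N replicate 3, apart from 19.3 to 20.3 CPM in the other N libraries. These gaps passed Dixon's 95% critical value of 0.829 for 4 samples in 3 of 21 groups of values examined, and chance passes it in about 1 in 20 groups. With 3 of 4 values at 0, a single library with any read passes it.

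Plin4 differed between the tumour groups, with a log2 fold change of -2.73 in BTPRZ-T against BT-T. The strand opposite to the gene, outside the main measurement, held 19 reads at Cfd and 27 at Plin4 in BTPRZ-T replicate 4, against 0 at Cfd and 1 to 13 at Plin4 in the N libraries.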

How the results depend on the processing

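Over 18 tested changes of single members, 407 values were recomputed, of which 361 kept their direction and side of the threshold, 20 lost and 11 gained a call, and 15 changed sign. Adipoq between the tumours gave no value in 2 further cases, where neither group held a read. The members called in BT-T against N numbered 2, 1 with a filter of 2 CPM in 4 libraries (Adipoq was not tested), 1 with the replicate block, 3 by DESeq2 and with the 2 groups alone in the fit (Cidec added), 4 without N replicate 2 and BTPRZ-T replicates 1 and 4, the 3 sparse libraries, and 0 to 3 when 1 library was left out. Those called in BTPRZ-T against N numbered 2, 3 with voom (Adipoq added), 4 without the 3 sparse libraries, and 2 to 3 when 1 was left out. Between the tumours the number was 1, with 0 under the replicate block and under voom, 2 by DESeq2, 4 without the 3 sparse libraries, and 0 to 2 when 1 was left out. The 4 then called between the tumours were Cidec, Fabp4, Lpl and Plin4. Over all tested genes, calls in BT-T against N rose from 1274 of 14860 to 4359 of 15208 without the 3 sparse libraries. The totals of that fit in BTPRZ-T against N and between the tumours are not given here. The 4 members called in each therefore have no share over all genes beside them. Of the 15 values that changed sign, 1 was called, Fabp4 between the tumours, from 0.28 to -1.35 without the 3 sparse libraries. Fabp4 between the tumours was also -0.24 with voom and ranged from -0.53 (without BTPRZ-T replicate 4) to 0.63 when 1 library was left out. Fabp4 in BT-T against N went from -0.61 to 0.34 without the 3 sparse libraries and ranged from -0.88 to 0.28 (without N replicate 2) when 1 was left out. In BTPRZ-T against N it went from -0.32 to 0.021 without BTPRZ-T replicate 3, in a range of -1.09 to 0.56 (without N replicate 2). Cidec in BTPRZ-T against N went from 0.03 to -0.018 with RLE factors and with DESeq2, -0.64 with the replicate block, -1.87 with voom, and below 0 without N replicate 3 or BTPRZ-T replicates 2 or 3, in a range of -0.72 to 0.46 when 1 library was left out. Cfd between the tumours went from -4.14 to 0.99 in the unstranded column, which adds the 19 reads of BTPRZ-T replicate 4 on the opposite strand. The origin of those reads and the cause of the other changes of sign were not tested. Cfd in BTPRZ-T and Plin4 in BTPRZ-T, each against N, kept their calls in every setting run. The summed CPM of the 7 members was 96.3, 82.7 and 51.2 in N, BT-T and BTPRZ-T, and 37.3, 12.8 and 6.01 without Lpl and Fabp4.

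Under the replicate block, the edgeR adjusted p was 0.0628 for Adipoq in BT-T against N and 0.0670 for Plin4 between the tumours. The labels do not say that replicate numbers pair samples. Deviations of same-numbered libraries correlated with r of -0.297 to 0.315 across genes, over 0.1 in 5 of 12 pairs. The precision of Cfd, Adipoq and Plin1 is limited by reads: 3 reads, which a count of 0 allows, were worth 0.104 to 0.203 CPM in a library.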
